A study of Homo sapiens with 60 samples.

Results

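Sayeok-tang is a decoction of traditional East Asian medicine that combines aconite root, dried ginger and licorice. The libraries described here are HT29 cells, a human colorectal adenocarcinoma line of epithelial origin, left for 24 h with the water extract of Sayeok-tang at 100 µg/mL (medium dose, 3 libraries) or 20 µg/mL (low dose, 3 libraries), or with vehicle (3 libraries). The 6 treated libraries were taken as 1 group and set against the 3 vehicle libraries. Thus 9 of the 60 RNA-seq libraries of the series enter the main comparison. Their choice by label, and that of the gene lists, was made with earlier results of these data known. The vehicle is given as 0.1% DMSO in the sample labels and as 2% DMSO in the description of the series. No DMSO share is listed for the extract libraries, so a matched solvent cannot be assumed. For reference, 12 further libraries held ethanol extracts at 20 µg/mL for 24 h, 3 each of Zingiberis Rhizoma Recens, Zingiberis Rhizoma, Pinelliae Tuber and Scutellariae Radix. The low doses of Coptidis Rhizoma (12.8 µg/mL) and Zizyphi Fructus (20 µg/mL) had 1 library each. The high dose of Sayeok-tang (500 µg/mL, 3 libraries) and another water extract, Bojungikgi-tang, at 100 and 20 µg/mL (4 libraries) were the remaining references. HT29 is 1 tumour line grown alone, with no immune or stromal cells added per the labels.

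Epithelial cells of the colon meet microbes and their products at the mucosal surface and answer them through the transcription factor NF-kB. Its targets include chemokines that call neutrophils (CXCL1, CXCL2, CXCL3, CXCL5, CXCL6 and CXCL8) or dendritic cells and lymphocytes (CCL20), and secreted defence proteins such as lipocalin and complement. A second arm, the interferon response, runs from nucleic acid sensors and interferon receptors through transcription factors such as STAT2 and IRF9 to antiviral effectors such as the OAS, MX and IFIT proteins. Promoters of the first arm often carry an NF-kB site, and those of the second an interferon-stimulated response element.

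Each of the 7 chemokine genes that rose carried NF-kB letters upstream of its start. The stretches below are 80 bases each from RefSeq on GRCh38.p14, written 5′ to 3′ on the strand of the gene, and the capitals mark matches, on either strand, to GGAATTTCC or to GGG, any 2 bases and TTTCC. They are shown because CXCL1, CXCL2, CXCL3, CXCL5 and CXCL6, neighbours on chromosome 4, share the same run of capitals, while CXCL8 and CCL20 differ from it.
CXCL1 (chr4:73869280-73869359, + strand): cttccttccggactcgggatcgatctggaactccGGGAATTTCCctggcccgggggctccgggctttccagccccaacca
CXCL2 (chr4:74099228-74099307, - strand): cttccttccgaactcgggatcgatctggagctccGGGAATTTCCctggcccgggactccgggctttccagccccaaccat
CXCL3 (chr4:74038723-74038802, - strand): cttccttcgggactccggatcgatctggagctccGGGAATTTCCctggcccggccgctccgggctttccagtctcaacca
CXCL5 (chr4:73998723-73998802, - strand): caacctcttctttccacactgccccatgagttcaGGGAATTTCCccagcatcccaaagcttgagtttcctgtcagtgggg
CXCL6 (chr4:73836554-73836633, + strand): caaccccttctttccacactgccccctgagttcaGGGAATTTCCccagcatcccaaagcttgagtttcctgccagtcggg
CXCL8 (chr4:73740443-73740522, + strand): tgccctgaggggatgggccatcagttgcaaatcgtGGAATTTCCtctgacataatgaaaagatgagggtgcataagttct
CCL20 (chr2:227813728-227813807, + strand): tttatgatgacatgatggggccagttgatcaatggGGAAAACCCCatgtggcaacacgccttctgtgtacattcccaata
The capitals of CXCL1 begin 79 bases before the RefSeq start, and those of CXCL8 begin 91 bases before it. Of 27305 RefSeq promoters of 300 bases, 608 (2.23%) held one of these NF-kB motifs. Among the 7 chemokine genes tested that did not pass, 4 had a sequence and 2 of those, CXCL10 and CXCL11, held the letters. A match describes the letters only.

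The promoters of interferon genes were searched for other letters. The capitals in the next stretches mark GAAA, any 2 bases and GAAA, the core of an interferon-stimulated response element, on either strand. The reverse form reads TTTC, 2 bases and TTTC. IFIT1 and IFI44 show the reverse orientation, and IFI44L, DDX60L and OAS3 the forward one. IFIT1 and DDX60L show the letters at 2 places, and IFI44L and OAS3 hold a further match upstream of the stretch shown.
IFIT1 (chr10:89392485-89392564, + strand): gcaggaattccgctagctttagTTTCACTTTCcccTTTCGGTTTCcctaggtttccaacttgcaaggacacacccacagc
IFI44 (chr1:78649709-78649788, + strand): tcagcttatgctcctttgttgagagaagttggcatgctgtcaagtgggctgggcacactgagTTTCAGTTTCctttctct
IFI44L (chr1:78620340-78620419, + strand): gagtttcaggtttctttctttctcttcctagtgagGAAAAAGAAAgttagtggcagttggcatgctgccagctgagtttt
DDX60L (chr4:168480498-168480577, - strand): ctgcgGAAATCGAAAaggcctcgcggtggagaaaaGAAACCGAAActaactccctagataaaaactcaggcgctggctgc
OAS3 (chr12:112938394-112938473, + strand): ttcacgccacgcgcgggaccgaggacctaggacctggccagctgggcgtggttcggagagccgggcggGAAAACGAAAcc
The letters occurred in 996 of the 27305 promoters (3.65%). They were found in 15 of the 19 risen interferon-stimulated genes with a sequence, and in 10 of the 19 members that did not pass. NF-kB letters were found in 1 of the 19 risen genes, OAS3, upstream of the stretch shown.

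The 9 libraries held 21.3 to 35.8 M (mega) counts and 22010 to 23673 genes with a count. Vehicle replicate 1 stood apart in its share of ribosomal protein transcripts (7.20%, against 5.50% to 6.23% in the treated libraries). Mitochondrial transcripts made up at most 7.66% of the treated libraries and 7.62% to 8.86% of vehicle. The summed level of 12 colon epithelial markers was 11063 to 12256 CPM in the treated libraries and 12208 to 13901 CPM in vehicle. Leukocyte markers other than LYZ, a lysozyme gene that epithelial cells also express, summed to 5.83 to 9.61 CPM and stromal and endothelial markers to 3.29 to 4.45 CPM over the 9 libraries. For single genes, CPM are counts per M after TMM scaling of the libraries. They compare libraries for 1 gene, not genes with each other. The marker sums, the filter cutoff and the floors below use library totals without that scaling. In such bulk RNA, fewer cells of a type and less RNA per cell cannot be told apart. Whether replicates were separate cultures is not stated in the labels, and p-values therefore refer to library-to-library spread, which may be technical. Vehicle, the water extracts and the ethanol extracts also carry different sample code sets, and extract and code set cannot be told apart.

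Chemokine genes were the clearest rise that persisted below the high dose. Of the 20 chemokine ligands listed, 14 passed the filter on low counts, and 7 of these rose and 0 fell against vehicle, where 2.04% of all 16763 genes tested rose and 2.6% fell (edgeR's quasi-likelihood test with Benjamini-Hochberg adjustment, adjusted p under 0.05, as for every call below). The median log2 fold change of the 14 was 1.43, beside -0.006 over all genes. The same count of 7 rose at the medium dose alone and at the low dose alone, where 0.453% and 1.59% of all genes rose. The filter asked for 0.409 CPM in at least 2 libraries of the fit. CXCL5 and CXCL10 among the 14 reached it only through the water extracts, Sayeok-tang and Bojungikgi-tang. The test of CXCL5, with no count in vehicle, thus leaned towards a rise and adds no support. The other 6 risen ligands reached it without them, CCL20 in 7 libraries, 1 of these among the 15 of vehicle and the ethanol low doses.

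CXCL1 (ENSG00000163739, chr4:73869393-73871242), a neutrophil chemokine, stood at 2.55, 0.926 and 1.1 CPM in vehicle replicates 1 to 3. Its level was 15.0, 15.4 and 16.2 CPM at the low dose and 20.9, 21.2 and 28.1 CPM at the medium dose. All 6 treated libraries thus lay above the highest vehicle library, and vehicle replicate 1 was the highest of its group. The rise was 13.4-fold (log2 3.75 ± 0.19 SE, adjusted p = 5.63e-19 by edgeR's quasi-likelihood test). The 12 ethanol low-dose libraries ranged from 0.855 to 2.28 CPM with a median of 1.39, and the log2 difference from them was 3.75 ± 0.11 SE. At the high dose CXCL1 was 21.2, 19.3 and 22.6 CPM, inside the range of the lower doses.

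CXCL8 (ENSG00000169429, chr4:73740506-73743716), or interleukin 8, measured 5.0, 4.46 and 4.75 CPM in vehicle. The low dose gave 22.4, 19.9 and 21.0 CPM and the medium dose 27.8, 25.0 and 29.7 CPM. No treated library overlapped vehicle, and the medium-dose libraries all lay above the low-dose ones. The log2 rise was 2.35 ± 0.10 SE (adjusted p = 3.56e-21 by edgeR's quasi-likelihood test), and it was 2.15 against the ethanol low doses, which spanned 4.7 to 6.54 CPM.

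CCL20 (ENSG00000115009, chr2:227805739-227817564), which binds CCR6 on dendritic cells and lymphocytes, was near 0 without the extract, at 0.245, 0.14 and 0.304 CPM in vehicle. It reached 3.4, 3.66 and 3.76 CPM at the low dose and 4.69, 5.22 and 5.44 CPM at the medium dose, again with no overlap. Its log2 rise was 4.26 ± 0.26 SE (adjusted p = 3.5e-16 by edgeR's quasi-likelihood test). CXCL6, CXCL3 and CXCL2, further neutrophil chemokines, rose by log2 3.01 ± 0.28, 1.95 ± 0.22 and 1.85 ± 0.28 SE, and all 6 treated libraries of each lay above vehicle. CXCL5 had 0 counts in the vehicle libraries and 70 in the 6 treated ones, at least 13.9-fold higher against a floor of 3 counts over the group. Against the 12 ethanol low-dose libraries, which also had 0 counts, it was at least 48.0-fold higher.

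**Figure D1:**
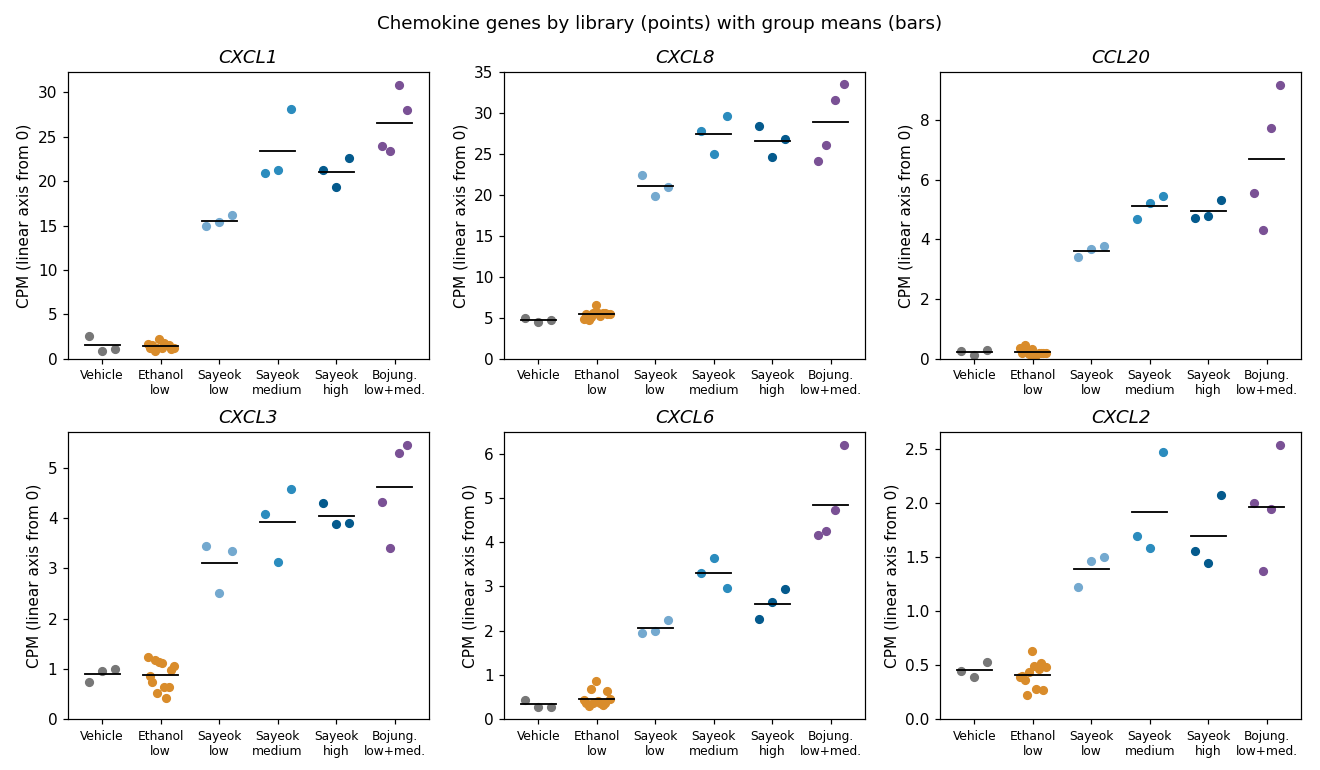
Level of 6 chemokine genes in CPM (linear axes from 0) in each library of vehicle, the ethanol low doses, Sayeok-tang at its low, medium and high doses, and Bojungikgi-tang at its low and medium doses. Points are libraries and bars are group means. For CXCL1 the 6 libraries of the lower Sayeok-tang doses sit between 15.0 and 28.1, above all 3 vehicle and all 12 ethanol libraries.

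The other 7 chemokine genes tested did not pass. CXCL10 and CXCL11, ligands of CXCR3 that interferon is known to induce, had log2 differences of 1.01 ± 0.42 SE (adjusted p = 0.145 by edgeR's quasi-likelihood test) and 0.33 ± 0.29 SE (adjusted p = 0.532 likewise). CXCL10 was low throughout, at 0.114 to 0.392 CPM in vehicle and 0.233 to 0.576 CPM in the treated libraries, so that the groups overlapped. CXCL16, a chemokine that also serves as a scavenger receptor, was at 10.1 to 10.8 CPM in vehicle and 9.35 to 11.5 CPM in the treated libraries. CCL15 and CCL28, both made by gut epithelium, had log2 differences of -0.15 and 0.05.

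Among 21 cytokine genes listed, 11 were tested and 3 rose, where 2.04% of all genes rose. CSF1, the macrophage growth factor, went from 0.441, 0.673 and 0.418 CPM in vehicle to between 1.37 and 2.14 CPM in the treated libraries (log2 1.75 ± 0.25 SE). IL17C, an epithelial cytokine that acts on epithelium itself, rose by log2 2.56 ± 0.56 SE from very low counts. It passed the filter only through the water extracts, so its test leaned towards a rise and adds no support. Its call ended without vehicle replicate 2 (log2 2.34, adjusted p = 0.0558 by edgeR's quasi-likelihood test). TNFSF15 rose by log2 0.42, but 2 of the 4 ethanol low doses also rose, and its log2 difference from the ethanol libraries was 0.09. Of 15 microbial receptors and adaptors tested, TLR3 and TLR4 rose (log2 0.38 and 0.40) and 0 fell, and against the ethanol low doses 0 passed. Of the 9 fits that left out 1 library, TLR3 lost its call in 6 and TLR4 in 8, that without vehicle replicate 1 among them. Both held without the 3 libraries that stood apart.

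Genes of mucosal defence rose with the chemokines. Of 21 listed, 15 were tested, 9 rose and 0 fell, where 2.04% of all genes rose and 2.6% fell. The median log2 fold change was 0.64. C3 and SAA1 among the 9, and DUOX2, which did not pass, reached the filter only through the water extracts. The tests of C3 and SAA1 thus leaned towards a rise and add no support. The other 7 risen genes reached it without them. PI3, the protease inhibitor elafin, measured 5.34, 3.37 and 3.57 CPM in vehicle, 10.9, 10.5 and 12.1 CPM at the low dose, and 12.9, 14.0 and 15.0 CPM at the medium dose. The groups did not overlap, and the rise was log2 1.64 ± 0.14 SE (adjusted p = 4.32e-11 by edgeR's quasi-likelihood test). PIGR, the receptor that carries IgA across the epithelium, went from 0.814 to 1.13 CPM in vehicle to 4.59 to 5.49 CPM at the low dose and 3.74 to 4.76 CPM at the medium dose. Its log2 rise was 2.31 ± 0.17 SE, and here the low dose was not below the medium dose.

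Complement and acute-phase genes were almost silent in vehicle. C3, the central complement component, had 1 count in vehicle and 229 in the treated libraries, a ratio of 137 after scaling to depth (95% counting interval 24.3 to 5430). Against 12 counts in the ethanol low doses the ratio was 39.3 (22.1 to 77.2). SAA1, serum amyloid A, had 0 counts in vehicle and 73 in the treated libraries, at least 14.5-fold higher against a floor of 3 counts over the group. The intervals and floors cover counting error only. CFB, complement factor B, rose by log2 1.09 ± 0.16 SE and CEACAM7, a surface glycoprotein of colonocytes, by 1.82 ± 0.28 SE. LCN2, an iron-sequestering lipocalin, rose from 86.5 to 93.6 CPM in vehicle to 117 to 135 CPM, with no overlap. ICAM1, an adhesion receptor for leukocytes, rose by log2 0.64 and SOD2, the mitochondrial superoxide dismutase, by 0.29. SLPI, a secreted protease inhibitor, did not pass (log2 0.04), nor did CEACAM6 (0.03) or the beta-defensin DEFB1 (-0.15).

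Most genes of the NF-kB pathway itself did not pass. Of 24 tested, 5 rose (20.8%, where 2.04% of all genes rose) and 0 fell, with a median log2 fold change of 0.11. BIRC3, an NF-kB target that restrains cell death, measured 5.34, 5.86 and 5.81 CPM in vehicle and 9.07 to 10.2 CPM in the treated libraries (log2 0.73 ± 0.09 SE, adjusted p = 1.3e-07 by edgeR's quasi-likelihood test). The other 4 were NFKBIZ, BIRC2, NFKB2 and CYLD, between log2 0.28 and 0.36, and each of these calls was lost on leaving out at least 1 vehicle library. The subunits NFKB1 and RELA and the inhibitor NFKBIA had log2 differences of 0.05, -0.04 and 0.04. With the 9 libraries fitted alone, 9 rose and 3 (NFKBIB, BCL3 and TNIP2) fell.

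The interferon-stimulated antiviral genes rose by smaller steps. All 46 listed genes were tested, 21 rose and 0 fell, where 2.04% of all genes rose and 2.6% fell. A log2 fold change above 0 was seen in 43, and the median was 0.46. In 24 of the 46, all 6 treated libraries lay above all 3 vehicle libraries, where 8.71% of all genes did so. OAS2, which makes the second messenger that activates RNase L, measured 6.67, 4.32 and 6.34 CPM in vehicle. It measured 15.7, 9.75 and 12.5 CPM at the low dose and 14.2, 10.2 and 12.2 CPM at the medium dose. Replicate 2 was the lowest in each of these groups, and the groups did not overlap. The log2 rise was 1.13 ± 0.18 SE (adjusted p = 0.000112 by edgeR's quasi-likelihood test).

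OAS1, its relative, went from 26.3 to 30.7 CPM in vehicle to 38.6 to 48.3 CPM in the treated libraries (log2 0.59 ± 0.08 SE). MX1, a GTPase that blocks viral nucleocapsids, went from 10.2, 8.47 and 10.2 CPM to between 13.6 and 21.2 CPM (log2 0.81 ± 0.14 SE). IFI44 rose by log2 0.86 ± 0.12, IFI44L by 1.53 ± 0.30 and IFIT1, which binds foreign RNA caps, by 0.62 ± 0.14 SE. The other IFIT genes were mixed: IFIT5 and IFIT3 rose (log2 0.63 and 0.30), and IFIT2 did not pass (0.09). Among members that did not pass were IFI6 (0.09), BST2 (0.07), OASL (0.04) and LY6E (-0.15). The count of risen members was 16, 14 and 20 without vehicle replicate 1, 2 and 3. It was 32 without the 3 libraries that stood apart, and with the 9 libraries fitted alone it was 28, with 2 (IFITM2 and LGALS3BP) lower.

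The signalling layer above these genes moved in part. Of 14 signalling genes tested, 4 rose, where 2.04% of all genes did so. IRF9, a DNA-binding interferon regulatory factor, measured 16.6, 14.1 and 15.1 CPM in vehicle and 20.2 to 22.9 CPM in the treated libraries, with no overlap (log2 0.47 ± 0.11 SE, adjusted p = 0.00901 by edgeR's quasi-likelihood test). STAT2, a transcription factor that interferon receptors activate, was among the risers at log2 0.29, as was USP18, a feedback protease, at 0.43. The calls of STAT2 and USP18 ended without vehicle replicate 1, and those of IRF9 and USP18 without vehicle replicate 2. Of 9 nucleic acid sensors and adaptors 4 rose: DDX58, the RNA sensor RIG-I, by log2 0.57 ± 0.09 SE, IFIH1, the sensor MDA5, by 0.47, EIF2AK2, the kinase PKR, by 0.40 and TBK1 by 0.29. The calls of IFIH1, EIF2AK2 and TBK1 ended without vehicle replicate 1. Those of STAT2, USP18, IRF9, IFIH1, EIF2AK2 and TBK1 held without the 3 libraries that stood apart, vehicle replicate 1 among them.

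Of 13 interferon and interferon receptor genes, 7 passed the filter and IFNGR1 alone rose (log2 0.26 ± 0.05 SE). Over all genes 2.04% rose. The only interferon ligand tested, IFNE, measured 4.95 to 6.04 CPM in vehicle and 4.34 to 5.9 CPM in the treated libraries. Of 17 genes of MHC class I presentation, TAP2, a peptide transporter subunit, and ERAP1, a trimming peptidase, rose by log2 0.23 and 0.25. Both calls were lost without vehicle replicate 1, and that of ERAP1 in 6 of the 9 fits that left out 1 library. Both held without the 3 libraries that stood apart. B2M, the light chain of class I molecules, and TAPBP, the peptide-loading factor tapasin, did not pass, at log2 0.09 and 0.03.

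**Figure D2:**
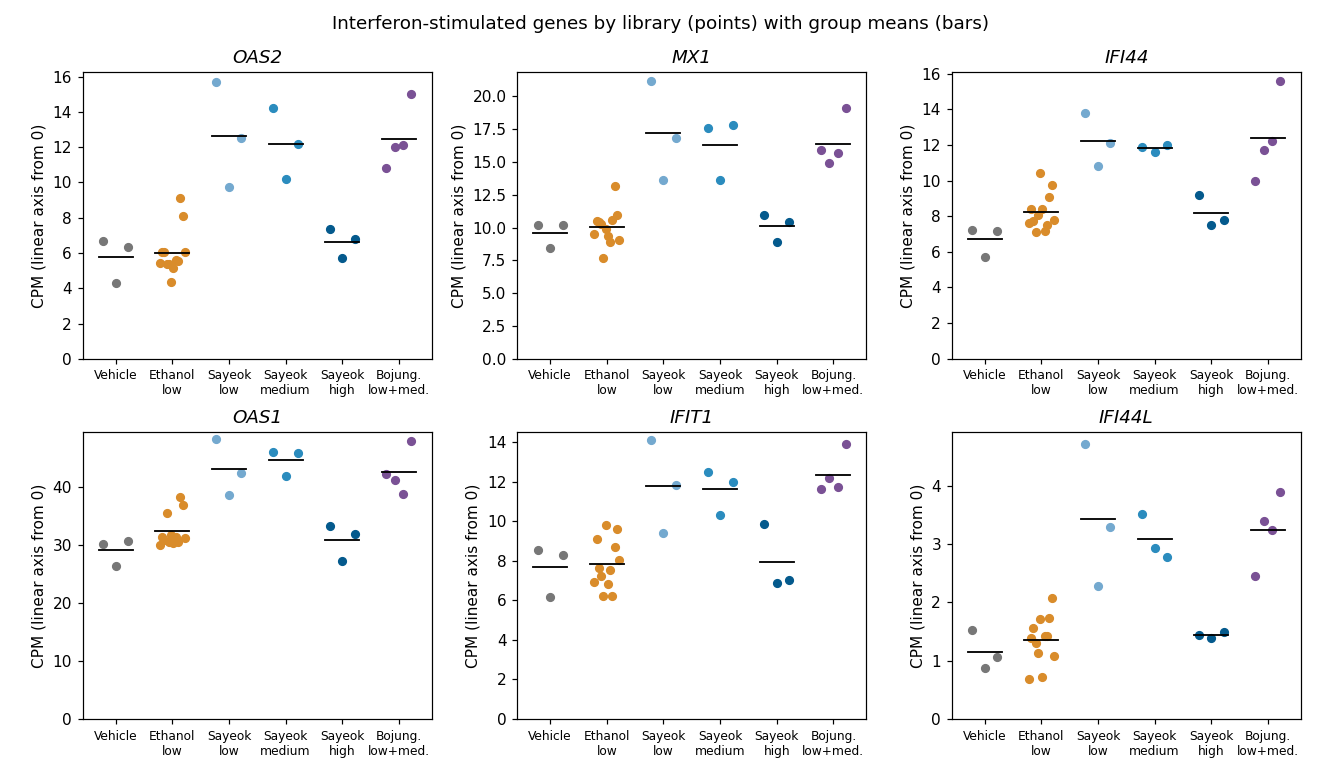
Level of 6 interferon genes in CPM (linear axes from 0) in each library of the same groups as for the chemokines, with bars for group means. The high-dose libraries of OAS2 (5.73 to 7.36) sit below the 6 libraries of the lower doses (9.75 to 15.7).

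The ethanol low doses gave a second reference, with 12 libraries that had also been treated. Against them 90 genes passed (0.537%), 80 higher (0.477% of genes tested) and 10 lower (0.0597%). The same 7 chemokine ligands were higher here, CXCL3 and CXCL2 by log2 2.01 and 2.00, CXCL6 by 2.54 and CCL20 by 4.32. Of the cytokines CSF1 was higher by log2 1.75, IL17C by 3.55 and IL32, which had not passed against vehicle, by 1.32, while TNFSF15 did not pass. Also higher were 8 of 15 mucosal defence genes (C3 and SAA1 among them), 8 of 24 NF-kB genes and 20 of 46 interferon-stimulated genes. The median log2 difference was 1.35 for the chemokines, 0.55 for mucosal defence and 0.39 for the interferon-stimulated genes, and no member of these lists was lower. All 6 Sayeok-tang libraries lay above all 12 ethanol libraries for 7 chemokine and 12 interferon-stimulated genes, where 0.34% of all genes did so. In the NF-kB list the members differed between the references. NFKBIZ, BIRC2 and CYLD did not pass against ethanol, whereas the subunit RELB (log2 0.37) and the RNase ZC3H12A (0.44) passed there and not against vehicle.

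Both references together gave 56 genes higher (0.334% of those tested), 70.0% of the 80 above the ethanol low doses and 16.4% of the 342 above vehicle. The 2 comparisons share the 6 Sayeok-tang libraries. CXCL5, IL17C, C3 and SAA1 among the 56, and thus among the 80 and the 342, reached the filter only through the water extracts. Their tests thus leaned towards a rise and add no support, and they were kept in the counts. Genes outside the lists were not checked for this. Of the 56, 19 were in the chemokine, cytokine, NF-kB or mucosal lists, 23 in the interferon, sensor or MHC class I lists and 14 in neither set. Their median log2 rise against vehicle was 0.73, the smallest was 0.19, and 21 exceeded 1. All 6 treated libraries lay above vehicle for 55 of them and above the ethanol libraries for 43, where 8.71% and 0.34% of all genes did so. The 56 were picked by tests on these same libraries, so such separation follows largely from the choice and adds no support. The 14 outside the lists, named after their values were seen, included the antiviral genes SAMHD1 (log2 0.33), ZC3HAV1 (0.21), HELZ2 (0.47) and SLFN5 (0.73). They also included MMP7 (0.42), a matrix protease that activates defensins, IL4I1 (2.01), an amino acid oxidase, and SDC4 (0.32), a heparan sulfate proteoglycan. The count of 56 ranged from 39 to 67 on leaving out single libraries, at its lowest without vehicle replicate 2 and at its highest without Scutellariae Radix low-dose replicate 3, and was 44 without vehicle replicate 1.

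**Figure D3:**
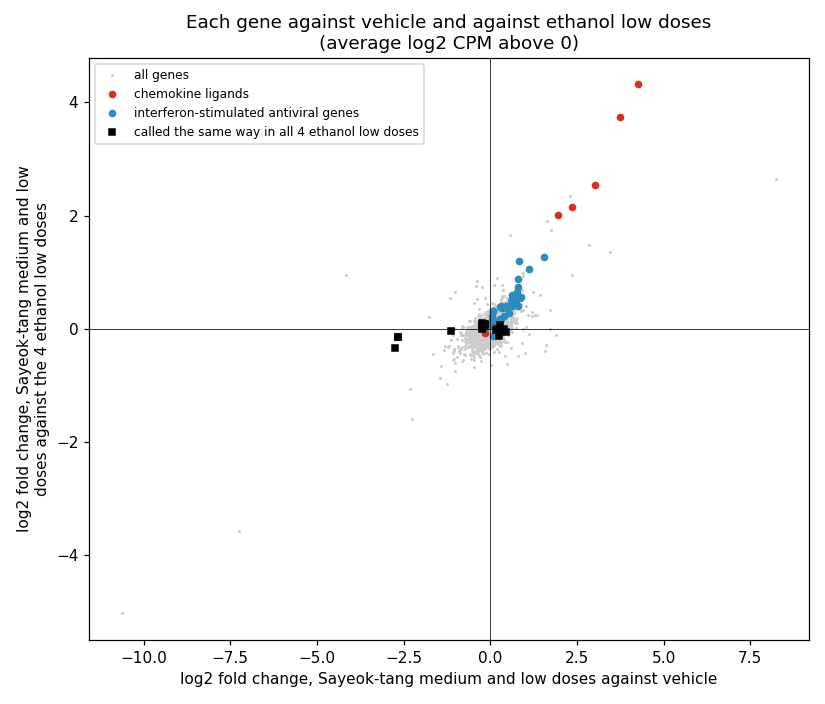
Log2 fold change of the 6 Sayeok-tang libraries against vehicle (horizontal axis) and against the 4 ethanol low doses (vertical axis), one point per gene with an average log2 CPM above 0. The chemokine ligands (red) that rose and are shown here, such as CXCL1 at 3.75 on both axes, lie to the upper right. Interferon-stimulated genes (blue) extend to 1.53 (IFI44L) on the horizontal axis. Genes also changed in all 4 ethanol low doses (black squares) lie near 0 on the vertical axis, which follows in part from how they were chosen.

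The whole count against vehicle was much larger, 778 genes (4.64%), 342 higher and 436 lower. It moved with the libraries kept in the fit. Without vehicle replicate 1, 98 genes (67 higher, 31 lower) passed, 310 without replicate 2 and 1106 without replicate 3. Yet 1536 (958 higher, 578 lower) passed without the 3 libraries that stood apart (vehicle 1, Scutellariae Radix low 3, Pinelliae Tuber high 2). The cause of this shift was not tested. Of the 342 rises, 161 (47.1%) were also called in at least 1 ethanol low dose, and of the 436 falls 225 (51.6%). These comparisons share the vehicle libraries. The 4 ethanol low doses called 520, 333, 92 and 64 genes against vehicle (3.1%, 1.99%, 0.549% and 0.382%). Changes common to Sayeok-tang and all 4 ethanol low doses came to 8 rises (0.0477%) and 15 falls (0.0895%), but that total of 23 ranged from 3 without vehicle replicate 1 to 414 without Scutellariae Radix low-dose replicate 3.

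The common falls were led by FP671120.3, FP236383.3 and FP236383.2, near-identical copies whose reads cannot be assigned with certainty. FP671120.3 measured 998, 1120 and 1130 CPM in vehicle, 115, 137 and 360 CPM at the low dose and 110, 144 and 122 CPM at the medium dose. Low-dose replicate 3 was the highest of the 6, and none reached vehicle. Its log2 fall of 2.76 against vehicle had no counterpart against the ethanol low doses, which spanned 110 to 411 CPM (log2 -0.34). MTND4P12, a mitochondrial pseudogene, fell by 1.15 on the log2 scale, and this call ended without vehicle replicate 1 (17.4 CPM there, 7.94 and 7.1 CPM in the other two). Another common fall was AURKA, a spindle kinase, at 171 to 179 CPM in vehicle and 152 to 164 CPM in the treated libraries (log2 -0.16). So was CDCA8, a subunit of the chromosomal passenger complex, at log2 -0.24. Their log2 differences from the ethanol libraries were 0.09 and 0.07. AURKA lost its call against vehicle without vehicle replicate 1, without replicate 3 and without the filter on low counts. Of 13 mitosis genes tested, only AURKA and AURKB were called lower than vehicle, where 2.6% of all genes fell. The common rises included PTPRO, a receptor phosphatase (log2 0.40), and SLC25A27, a mitochondrial carrier (0.46), with -0.01 and -0.06 against the ethanol libraries. Common genes were picked by calls in the same direction against the same vehicle libraries. Small differences from ethanol thus follow in part from the choice.

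Of the 436 falls, 2 (0.459% of the falls, 0.0119% of all genes) were also below the ethanol low doses. MALAT1, a nuclear long non-coding RNA, measured 1290, 1140 and 1100 CPM in vehicle, 579, 582 and 555 CPM at the low dose and 530, 602 and 589 CPM at the medium dose. No library overlapped, and the log2 fall was 1.04 (± 0.12 SE, adjusted p = 9.31e-08 by edgeR's quasi-likelihood test). Against the ethanol libraries, at 574 to 1430 CPM, the log2 difference was -0.40 ± 0.09 SE, with overlap, and this call ended without medium-dose replicate 1 or low-dose replicate 3. REG4, a lectin of secretory cells, fell by 0.44 on the log2 scale against vehicle, and its log2 difference of -0.22 from ethanol lost its call without each of 12 libraries. Among housekeeping and lineage lists, 1 of 81 ribosomal protein genes (RPLP1) was lower than vehicle, as were 2 of 15 mitochondrial transcripts (MT-ND6 and MT-RNR1). So were 3 of 12 colon epithelial markers (KRT8, KRT19 and LGALS4). The list medians were log2 -0.19, -0.31 and -0.14 in that order. Over all genes 2.6% fell, so the ribosomal protein genes stayed below the general share in this fit. With the 9 libraries fitted alone 24 ribosomal protein genes and 6 mitochondrial transcripts were lower, and 33 and 10 without the filter on low counts. Each of the 6 calls named here ended without vehicle replicate 1, and that of KRT8 in 6 of the 9 fits that left out 1 library. All 6 held without the 3 libraries that stood apart. Against the ethanol low doses 0 members of these lists passed with the filter.

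Between the medium and low doses 0 genes passed by edgeR's quasi-likelihood test (399 had an unadjusted p under 0.05, and DESeq2 called 0). By values, 11 of the 14 chemokine genes lay above 0 for the medium against the low dose, from log2 -0.34 to 0.68 with a median of 0.31. The log2 difference was 0.59 for CXCL1 (95% interval 0.29 to 0.89), 0.38 for CXCL8 (0.19 to 0.57) and 0.50 for CCL20 (0.14 to 0.87), each with an adjusted p of 1.0 by edgeR's quasi-likelihood test. The interferon genes lay closer, with -0.05 for OAS2 (-0.42 to 0.32), -0.07 for MX1 (-0.36 to 0.22) and 0.05 for OAS1 (-0.13 to 0.23).

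The step to the high dose separated the gene groups. Against the medium and low doses 46 genes passed (0.274%), 11 higher (0.0656%) and 35 lower (0.209%). None of the 14 chemokine, 15 mucosal defence or 24 NF-kB genes passed, and the log2 difference at the high dose was 0.14 ± 0.13 SE for CXCL1, 0.14 ± 0.08 SE for CXCL8 and 0.20 ± 0.16 SE for CCL20. Of the 46 interferon-stimulated genes 9 were lower and 0 higher, with a median of -0.36 beside 0.002 over all genes. IRF9 (log2 -0.51) and DDX58 (-0.44) were lower as well.

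OAS2 fell to 7.36, 5.73 and 6.8 CPM at the high dose, below all 6 libraries of the lower doses (log2 -0.91 ± 0.18 SE, adjusted p = 0.00859 by edgeR's quasi-likelihood test). OAS1 fell to 33.2, 27.2 and 31.9 CPM from 38.6 to 48.3 CPM (log2 -0.51 ± 0.08 SE). MX1 was lower by log2 -0.74, IFI44 by -0.56, HERC6, an ISG15 ligase family member, by -0.57 and PARP9, a mono-ADP-ribosyltransferase partner of DTX3L, by -0.36. CMPK2, PLSCR1 and SP100 completed the 9. Each of OAS2, OAS1, MX1, IFI44, HERC6, PARP9, IRF9 and DDX58 lost this call without at least 1 library, high-dose replicate 2 among them every time, with log2 differences of -0.33 to -0.81 without it. The number of lower interferon-stimulated genes was 14 by DESeq2, 22 without the 3 libraries that stood apart and 19 with the 9 libraries of Sayeok-tang fitted alone, where OAS2 and MX1 did not pass. Set directly against vehicle, the high dose gave log2 0.22 for OAS2 and 0.08 for MX1, neither past the threshold, beside 3.88 for CXCL1 and 2.50 for CXCL8.

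**Figure D4:**
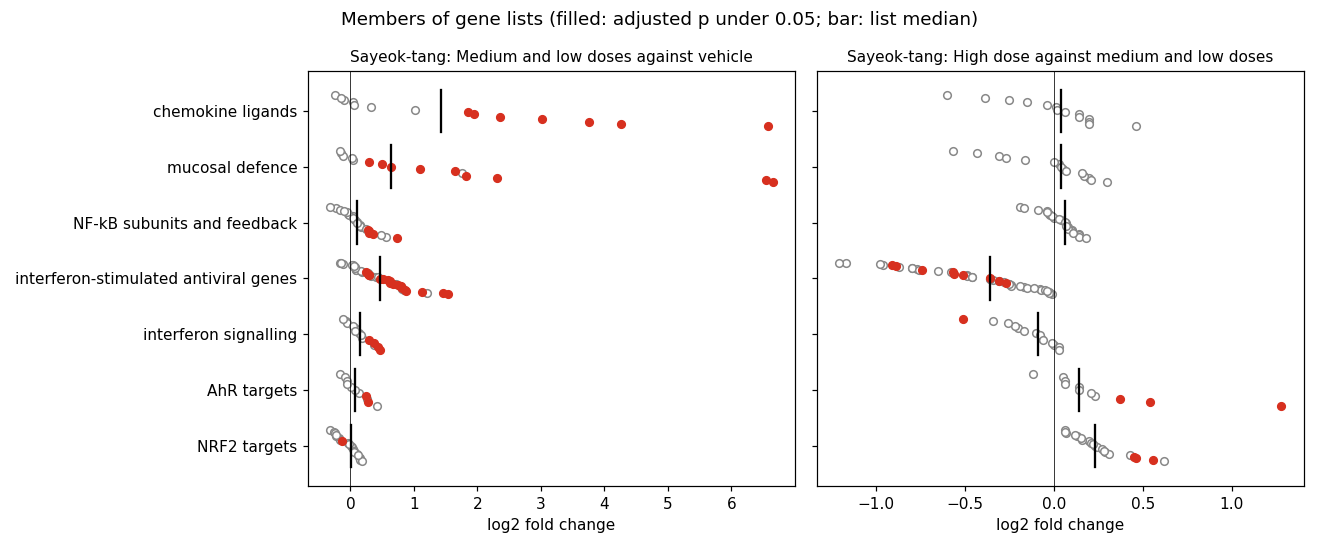
Log2 fold change of each tested member of 7 gene lists, for the medium and low doses against vehicle (left) and for the high dose against the medium and low doses (right). Filled points passed an adjusted p of 0.05 and bars are list medians. The chemokine median is 1.43 on the left and 0.04 on the right, and the median of the interferon-stimulated genes is 0.46 on the left and -0.36 on the right.

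Of 11 aryl hydrocarbon receptor targets 3 were higher at the high dose than at the lower doses, where 0.0656% of all genes were higher. Of 21 NRF2 targets another 3 were higher. In both lists 0 were lower, and the medians were log2 0.14 and 0.23. These 6 are detoxification enzymes. CYP1A1, a detoxifying monooxygenase induced through the aryl hydrocarbon receptor, measured 0.221 to 0.609 CPM at the lower doses, 0.168 to 0.494 CPM in vehicle and 0.913, 0.996 and 1.17 CPM at the high dose (log2 1.28 ± 0.27 SE). Its call ended without low-dose replicate 2 and without each high-dose library. The aldo-keto reductase AKR1C2, a steroid-metabolising target of NRF2, measured 11.0 to 12.8 CPM at the lower doses and 15.6 to 18.2 CPM at the high dose (log2 0.56 ± 0.08 SE), and it shares reads with its close copies. AKR1C1 and AKR1B10 were higher by 0.46 and 0.45, ALDH3A1 by 0.54 and UGT1A6 by 0.37. Without high-dose replicate 1 the calls of AKR1C1 (log2 0.39) and UGT1A6 (0.28) ended, with adjusted p of 0.0714 and 0.0566 by edgeR's quasi-likelihood test. At the lower doses 2 of 11 aryl hydrocarbon receptor targets (TIPARP and CYP1B1) rose against vehicle, where 2.04% of all genes rose. Of 21 NRF2 targets 1 (GSR) fell, where 2.6% of all genes fell. Each of these calls was lost without vehicle replicate 1, but held without the 3 libraries that stood apart, which include it. Against the ethanol low doses 0 of either list passed.

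Bojungikgi-tang was tested at the same doses. In the direct comparison 0 genes passed by edgeR's quasi-likelihood test (314 had an unadjusted p under 0.05, and DESeq2 called 2). CXCL1 was at 23.4 to 30.8 CPM in the 4 Bojungikgi-tang libraries, and Sayeok-tang differed from it by log2 -0.47 (95% interval -0.69 to -0.24). The log2 difference was -0.88 for CXCL6 (-1.21 to -0.54) and -0.54 for PI3 (-0.76 to -0.33), both with an adjusted p of 0.0932 by edgeR's quasi-likelihood test. OAS2 differed by 0.00 (-0.29 to 0.30) and OAS1 by 0.04 (-0.10 to 0.19). Among the ethanol extracts without replicates, the single low-dose libraries of Coptidis Rhizoma and Zizyphi Fructus had CXCL1 at 1.61 and 1.29 CPM, inside the range of vehicle.

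**Figure D5:**
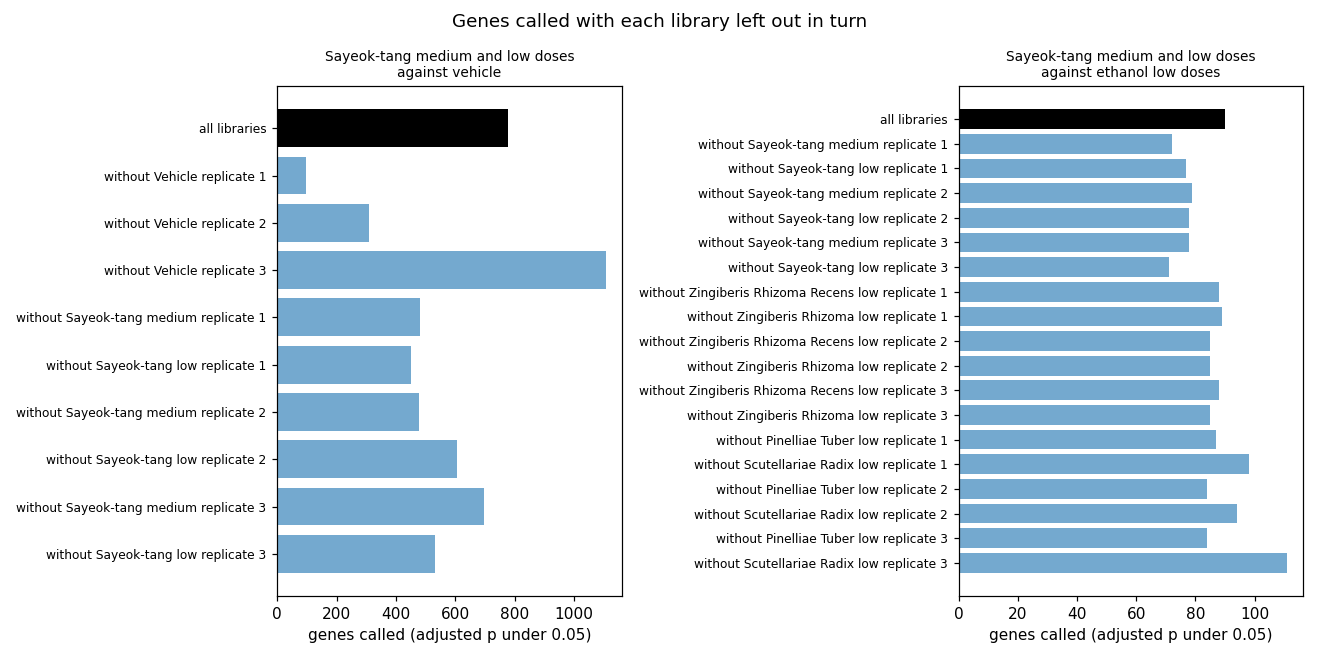
Number of genes called for the 6 Sayeok-tang libraries against vehicle and against the 4 ethanol low doses (horizontal bars from 0), with every library and with each library left out in turn. Against vehicle the count runs from 98 to 1106, and against the ethanol low doses from 71 to 111.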

How the data were processed

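RNA-seq of HT29 cells gave 1 deposited table with an expected count per Ensembl gene and library, estimated by the authors. Per the submitters' processing notes, the tools were RSEM 1.3.3, STAR 2.7.3a, Trim Galore 0.6.5 and FastQC 0.11.9, with GRCh38; neither annotation release nor strand setting is stated there. Per the labels, columns were matched by sample code, and 210 columns of other samples were not used. Of the expected counts, 90.0% to 92.1% per library were whole; all were rounded. GENCODE 29 gave symbols and positions for 57055 of 60675 IDs.

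The main fit held 54 libraries of 19 groups (edgeR 4.0.16, R 4.3.3): filterByExpr (16763 genes), TMM, estimateDisp without tagwise values, robust glmQLFit, glmQLFTest, and Benjamini-Hochberg adjustment over all genes at 0.05. SEs were obtained as the absolute log2 fold change divided by the square root of F. Medium and low doses had equal weight in the contrast. The residual degrees of freedom were 35. On simulated data for 16482 genes, 88% of 1.5-fold and 95% of 2-fold changes against vehicle were recovered, and 10.3% of calls were unchanged genes. Against the ethanol low doses these were 95%, 100% and 5.8%. The changed genes were drawn above a minimum mean level, so the lowest genes were not covered. Every gene took its spread from the trend with level, and no simulated library stood apart. These rates need not hold for the real calls.

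The members and gene lists were chosen with earlier results of these data known. The naming rule took the 8 largest changes each way against vehicle, the 6 list members with the smallest p, every chemokine tested, the 5 largest changes of each other comparison and the 6 largest common changes, the largest-change rules with an average log2 CPM above 2. Further members of the lists, and genes outside them, were named after their values were seen. Some genes counted in the lists are not reported by name here. Alternatives were DESeq2 1.42.0, its size factors, no filter, a replicate block, only the compared libraries, and leaving libraries out.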

Additional observations from a re-analysis of the deposited data

Results flagged for a closer look

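In 15 of 157 named genes, 1 of the 6 Sayeok-tang libraries of the lower doses lay far from the other 5, by Dixon's test at the 95% level. Chance alone flags about 5% of groups in such a test. Low-dose replicate 3 held the highest level of FP671120.3, FP236383.3 and FP236383.2 (360 CPM each, next 144) and of CXCL11 (1.5 CPM). Low-dose replicate 1 was highest for SI (0.817 CPM), and low-dose replicate 2 lowest for CXCL16 (9.35 CPM). Medium-dose replicate 3 was lowest for IFNAR1 (35.2 CPM), ATOH1 (3.27 CPM) and RNF43 (288 CPM), and highest for TALDO1 (302 CPM), AURKB (46.9 CPM), KRT19 (487 CPM), RPL6 (896 CPM) and RPLP2 (721 CPM). Medium-dose replicate 2 was highest for ITGAM (1.91 CPM).

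The high dose differed from the medium and low doses in 16 named genes by edgeR's quasi-likelihood test of that difference. The log2 difference was -0.91 for OAS2, -0.74 for MX1, -0.57 for HERC6, -0.56 for IFI44, -0.51 for OAS1, -0.51 for IRF9, -0.44 for DDX58 and -0.36 for PARP9. It was -0.66 for ADH6, an alcohol dehydrogenase, and -0.63 for RGPD6, a gene with near-identical copies. It was 1.28 for CYP1A1, 0.56 for AKR1C2, 0.54 for ALDH3A1, 0.46 for AKR1C1, 0.45 for AKR1B10 and 0.37 for UGT1A6.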

How the results depend on the processing

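The numbers of genes called are given here in a fixed order: against vehicle (both doses, medium, low), medium against low, high against both, against ethanol low doses, against Bojungikgi-tang, changes common to Sayeok-tang and the ethanol low doses, and higher than both references. Without a filter on low counts they were 1500, 452, 1416, 64, 117, 231, 47, 53 and 98. Without the 3 libraries that stood apart (vehicle 1, Scutellariae Radix low 3, Pinelliae Tuber high 2) they were 1536, 555, 1721, 4, 249, 191, 4, 278 and 87. With only the compared libraries, both doses gave 2667, low 1065, medium against low 18, high 260, Bojungikgi-tang 3 and common changes 0. DESeq2 gave 1240, 246, 1098, 77 at the high dose, 2 against Bojungikgi-tang and 64 common changes. Leaving out single libraries gave 98 to 1106, 51 to 190, 55 to 1002, 0 to 0, 12 to 40, 71 to 111, 0 to 0, 3 to 414 and 39 to 67. The cause of these shifts was not tested. DESeq2 size factors moved no count by over 1.5 times. The replicate block gave 773, 135, 544, 0, 45, 92, 0, 25 and 56, and with the block within code sets 0, 53 and 0 genes passed for medium against low, high and Bojungikgi-tang. By deviations from group means, 0 of 28 pairs of groups with 3 shared numbers had all 3 same-number correlations above 0.1 (single values -0.339 to 0.201), and in 4 of the 28 every library correlated best with its own number, so the numbers were not taken as pairing. Against vehicle DESeq2 called 2 chemokine ligands, with no adjusted p for 9 of 14, and 7 against the ethanol low doses. Of 69 named genes called against vehicle, 35 kept the call under every alternative that gave an adjusted p, 9 of them without one from DESeq2; of 38 against the ethanol low doses 30 did, and of 16 at the high dose 4. None changed sign. The count of genes higher than both references was added after seeing the data. Genes under about 1 CPM rest on few counts, and depth limits their folds.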
